A study of Capsella rubella with 6 samples.

Results

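The genes described here are 52 genes of *Capsella rubella* whose reads in the endosperm were almost wholly maternal in both directions of a cross. They were picked on those reads: at least 20 reads that could be assigned to a parent, with 0.99 or more of them maternal, in every one of the 4 libraries. The 52 genes were 0.744% of the 6990 genes with that many reads in every library, out of 12641 genes with at least 1 polymorphic site. Because the maternal share chose the genes, their shares are given as a description with no test.

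*C. rubella* is a self-fertilising relative of Arabidopsis, and the crosses joined 2 of its accessions, Cr75.2 (Cr B) and Cr48.21 (Cr A). Endosperm RNA was sequenced from Cr B x Cr A in 2 replicates and from Cr A x Cr B in 2 replicates. The female plants had been emasculated and were pollinated by hand, seeds were collected at 6 days after pollination, and each library pooled the endosperm dissected from 300 to 500 seeds. No mutant or treatment was involved. Which accession was the mother is not stated in the labels. The names were read as mother x father, and the maternal share itself comes from the authors' maternal and paternal counts and does not rest on that reading. Nothing in the labels says that the 2 replicates of a cross came from separate plants, so the p-values below measure the spread between libraries, which may be technical.

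The endosperm feeds the embryo and carries 2 maternal genomes for 1 paternal genome, so a gene read equally from every copy gives a maternal share of 66.7%. Genomic imprinting is expression that depends on which parent an allele came from. In Arabidopsis, many maternally expressed imprinted genes are tied to removal of DNA methylation in the central cell, the maternal precursor of the endosperm. Only some are tied to silencing of the other allele by Polycomb complexes. The seed coat that surrounds the endosperm is built by the mother alone, so its RNA is wholly maternal too. Endosperm RNA and RNA from maternal tissue left on it by dissection cannot be told apart by the share of reads. The files give gene intervals with no gene names, and the reference table available pairs no names with these intervals. The tissue could therefore not be checked against endosperm or seed coat markers, and no function can be given for any of the 52 genes. Each gene is called below by its scaffold and by the first coordinate of its interval. The genome build is not given in the sources used here.

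The libraries held 8828316 and 10864896 reads assigned to a parent within genes in Cr B x Cr A, and 7549075 and 10913804 in Cr A x Cr B. A read was counted at each site it covers, so these are base observations rather than molecules, and intervals of read shares given below cover counting error only. The median maternal share over the 6990 genes was 69.6% and 72.2% in the replicates of Cr B x Cr A, and 69.3% and 67.8% in those of Cr A x Cr B. All 4 medians lay slightly above the share that dosage alone gives.

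Over the 4 libraries the 52 genes had 253461 allelic reads, of which 528 were paternal, or 0.208% (exact 95% interval 0.191 to 0.227%). No paternal read was seen in 20 genes, 1 to 5 were seen in 19 genes, and more than 5 in 13 genes. Paternal reads appeared in at least 1 library of each cross in 23 genes, in Cr B x Cr A alone in 4 genes and in Cr A x Cr B alone in 5. The few paternal reads were thus not limited to 1 direction of the cross. By library the paternal share of the pooled reads was 0.305% and 0.198% in Cr B x Cr A, against 0.153% and 0.225% in Cr A x Cr B, and the crosses overlapped. Base calls that matched neither parent at the same sites made up 0.101% of calls (256 of 253717, exact 95% interval 0.0889 to 0.114%). They made up 0.100% and 0.112% of calls in Cr B x Cr A, and 0.0524% and 0.158% in Cr A x Cr B. Pooled over the 52 genes, calls to the paternal base were more frequent than calls to neither parent in each of the 4 libraries. The median paternal share by gene was 0.102%, so this need not hold gene by gene. Calls to neither parent also pool all other columns of counts, which no header names.

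Depth set how low a paternal share could be bounded. Reads per gene, summed over libraries, lay between 127 and 105355 with a median of 1318. The upper limit of the exact 95% interval of the paternal share was under 1% in 36 genes. Its highest value was 2.86%, in the gene on scaffold 3 at 8630403, which had 30 and 37 reads in Cr B x Cr A and 32 and 28 in Cr A x Cr B, none of them paternal. For the 20 genes with no paternal read, the limit taken as 3 reads of the total, a narrower bound than the upper limit of the interval, was 0.203% in the deepest and 2.36% in the shallowest. At least 100 reads in every library were found in 29 of the 52 genes.

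**Figure D1:**
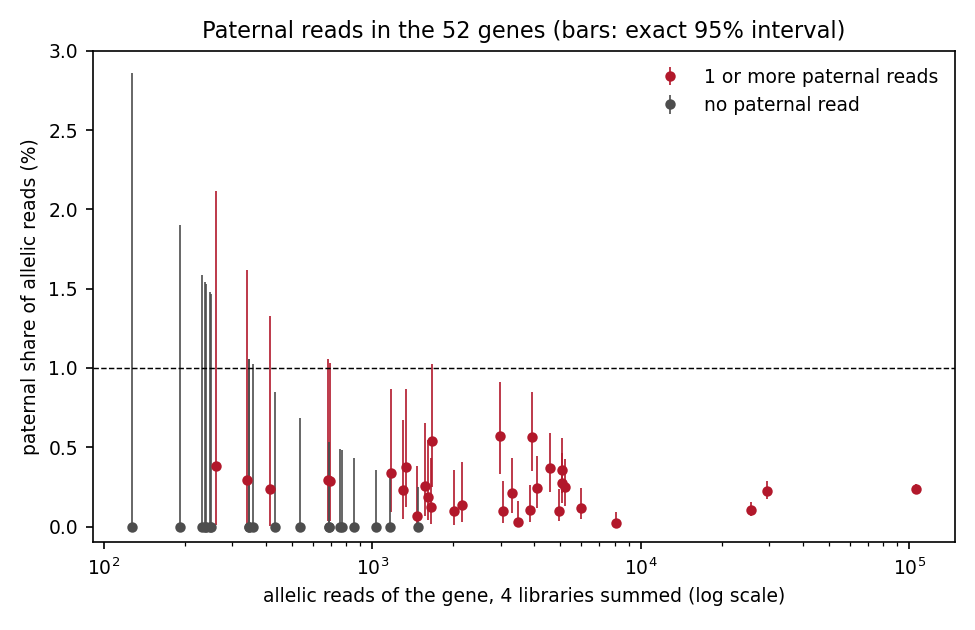
Paternal share of allelic reads (%) against the allelic reads of each gene summed over the 4 libraries (log scale), for the 52 genes. Points are genes, bars are exact 95% intervals for counting error, the dashed line marks 1%, and grey points are the 20 genes with no paternal read. Intervals narrow to the right, and the 3 genes with most reads lie between 0.105% and 0.239%.

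Most reads fell to the gene on scaffold 8 at 10153072 (to 10153827, minus strand), which held 41.6% of all reads of the 52 genes. Its maternal share was 99.5% of 11485 reads and 99.7% of 15441 reads in Cr B x Cr A, and 99.9% of 39708 reads and 99.8% of 38721 reads in Cr A x Cr B. It carried paternal reads in every library, 60 and 49 in Cr B x Cr A and 54 and 89 in Cr A x Cr B. Its pooled paternal share was 0.239% (exact 95% interval 0.211 to 0.271%). Without it the paternal share of the other genes together was 0.186%. Both of its sites lie in exons, at positions 10153437 and 10153483 of scaffold 8, and both were above 99% maternal in every library, the lowest value being 99.4%.

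Next in depth came a gene on scaffold 8 at 2799618 (to 2801036, plus strand), with 4965 and 6965 reads in Cr B x Cr A and 14310 and 3194 reads in Cr A x Cr B. It was 99.7% and 99.8% maternal in Cr B x Cr A, and 99.8% and 99.7% maternal in Cr A x Cr B. After it came the gene on scaffold 4 at 14898408 (to 14901076, minus strand), which was 99.8% and 99.9% maternal in Cr B x Cr A, and 99.9% in both replicates of Cr A x Cr B, with 5138 to 7690 reads per library. Its pooled paternal share was 0.105% (exact 95% interval 0.0694 to 0.153%), against 0.224% (0.173 to 0.285%) for the gene at 2799618. All 3 genes had some paternal reads in every library.

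On scaffold 2 the gene at 725704 (to 727162, minus strand) had a lower paternal share at high depth. It showed 2 paternal reads of 8066, a share of 0.0248% (exact 95% interval 0.00300 to 0.0895%), and both were in replicate 2 of Cr B x Cr A. The upper limit of that interval lies below the lower limit for the scaffold 8 gene at 10153072. Both intervals treat base observations as separate, while close sites, such as those at 725857 and 725863, can count the same read. They also leave out the spread between libraries, and the difference between the 2 genes was not tested. All but 1 of the 7 sites of the gene at 725704 lie in exons, and 4 of them had 20 or more reads in each library. The gene on scaffold 4 at 13086336 (to 13088079, plus strand) had 1 paternal read of 3480, in replicate 1 of Cr A x Cr B, at its only site. The deepest gene with no paternal read was on scaffold 3 at 4590598 (to 4593572, minus strand), with 484 and 480 reads in Cr B x Cr A and 188 and 326 in Cr A x Cr B. The gene at 13086336, like that at 8630403 above, was singled out after its values were seen.

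At the other end, the genes on scaffold 8 at 5030185 and on scaffold 7 at 14163666 had the highest pooled paternal shares, 0.563% (22 of 3911 reads) and 0.571% (17 of 2979 reads), and were likewise chosen after their values were seen. The scaffold 8 gene at 5030185 was 99.6% and 99.7% maternal in Cr B x Cr A, and 99.4% and 99.2% in Cr A x Cr B. The scaffold 7 gene at 14163666 was 99.4% and 99.3% maternal in Cr B x Cr A, and 99.3% and 99.6% in Cr A x Cr B. Both had paternal reads in every library.

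The bound of 0.99 falls in a stretch where neighbouring genes are separated by single reads. Just inside it, the lowest library value was 99.01% for the gene on scaffold 4 at 6865578, which rested on 1 paternal read among 101, 99.1% for that on scaffold 8 at 9847084 and 99.1% for that on scaffold 6 at 2252373. Just outside it, the lowest value was 98.9% for each of 3 genes, on scaffold 1 at 3158720, scaffold 4 at 2226844 and scaffold 7 at 3827086. The first of these outside genes also rested on 1 paternal read, among 89.

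The 52 genes held 195 polymorphic sites, of which 161 lay in listed exons and 34 in introns of the listed intervals. The exonic part was 82.6%, against 73.5% over all genes with enough reads. There were 12 genes with a single site and 40 with 2 or more, up to 17. At 81 sites in 44 genes each library had 20 or more reads, and 79 of these sites were exonic. The leading base at each of the 81 sites was the same in both replicates of a cross and changed between the crosses, which the rule itself largely fixes. The maternal share was at least 0.99 in every library at 70 of the 81 sites, and at least 0.95 at all 81, with a lowest value of 95.8%. No paternal read was seen at 36 of them. The other 11 sites belonged to 7 genes. Of the 20 genes with at least 2 such sites, 13 had every one of them at 0.99 or more.

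The most covered sites in a single gene were 6, in the gene on scaffold 7 at 11048097 (to 11050484, minus strand). Over all its 10 sites it had 3 paternal reads, 1 each at positions 11048599, 11049245 and 11049278, of 420, 285 and 277 reads, and the site at 11049245 is not among the 6, with 19 reads in replicate 1 of Cr A x Cr B. Its site at 11049278 had 40 maternal reads and 1 paternal read in replicate 1 of Cr A x Cr B. On scaffold 8 the gene at 864257 (to 865564, minus strand) had 5 covered sites and 17 paternal reads, with 5 and 8 in Cr B x Cr A and 0 and 4 in Cr A x Cr B. Also on scaffold 8, the gene at 9792661 (to 9794185, minus strand) had 4, with single paternal reads at 3 of its sites. In the gene on scaffold 2 at 912311 (to 915384, plus strand) all 3 paternal reads came from 1 site, at position 914711, while the remaining sites had none. Paternal reads in these genes were thus spread over sites in some and held by 1 site in another.

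Introns gave few reads. Intronic sites of the 52 genes had 1067 reads with 6 paternal, or 0.562% (exact 95% interval 0.207 to 1.22%). Exonic sites had 252394 reads with 522 paternal, or 0.207% (0.190 to 0.225%). The difference between introns and exons was not tested, and the intronic value rests on 6 paternal reads.

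The intervals of the 52 genes, introns included, were short. Their median length was 1779 bp with the middle part of the genes between 1409 and 2535 bp (25th and 75th percentiles). The other 6938 genes with enough reads had a median of 2718 bp, with 1920 to 3963 bp between the same percentiles. Of the 52 genes, 40 were shorter than the median of the others. The median number of sites was 3 in the 52 genes and 3 in all genes with enough reads, and sites per kb were 1.76 in the 52 genes and 1.28 in the others. The length of a gene was not part of the rule, and the minimum of reads was. The part of read number and site number in the difference was not tested. The shortest was the 354-bp gene on scaffold 7 at 6434918 and the longest the 5718-bp gene on scaffold 4 at 1266716. On the plus strand lay 22 genes and on the minus strand 30. No interval of the 52 overlapped that of another listed gene.

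As a description, genes were also picked in 2 libraries and read in the remaining ones. Those at 0.99 or more in the remaining libraries as well are the 52 genes by the rule itself. The share of all 6990 genes given beside them includes the 52. Intervals given with these percentages, here and for picks within a cross, treat genes as separate draws. Since the rule fixes the 52, they give no support for replication. Picking in both replicate 1 libraries with the same rule gave 112 genes, and 67 of them had 20 or more reads in both replicate 2 libraries. Of those 67, 77.6% (exact 95% interval 65.8 to 86.9%) were at 0.99 or more in both replicate 2 libraries, against 1.2% of all 6990 genes. All 67 were at 0.85 or more there, against 3.88% of all genes, and their lowest value was 91.2%. Picking in both replicate 2 libraries gave 107 genes, 84 with enough reads in replicate 1, and 61.9% (50.7 to 72.3%) were at 0.99 or more there, against 0.959% of all genes. Of the 84, 79 were at 0.85 or more, against 3.71% of all genes. The lowest value of these 84 genes in a replicate 1 library was 60.5%. No gene picked in either replicate had a mean share at or under 66.7% over the libraries of the other.

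Picking within 1 cross admits genes read from the allele of 1 accession as well, since an allele changes parent between the crosses. Of 91 genes picked in the Cr B x Cr A libraries and read in Cr A x Cr B, 57.1% (46.3 to 67.5%) held the bound of 0.99, against 1.17% of all genes, and 69 were at 0.85 or more, against 5.46%. In 21 of the 91 the mean share of the Cr A x Cr B libraries was at or under the 66.7% that dosage gives. Of 82 genes picked in the Cr A x Cr B libraries and read in Cr B x Cr A, 63.4% (52.05 to 73.8%) held the bound, against 1.3% of all genes, and 68 were at 0.85 or more, against 6.25%. In 12 of the 82 the mean share of the Cr B x Cr A libraries was at or under 66.7%. The genes that held the bound of 0.99 were the same 52 whichever libraries were picked on, since the rule asks for it in all of them. They are also counted in the share of all genes. These percentages thus describe the choice and are not a separate test of the 52.

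The level of the 52 genes was compared in counts per library total (CPM), which add both parental alleles. They took 0.509% and 0.511% of the allelic reads in Cr B x Cr A, and 1.16% and 0.598% in Cr A x Cr B. The scaffold 8 gene at 10153072 alone took 0.130% and 0.142% in Cr B x Cr A, and 0.526% and 0.355% in Cr A x Cr B. In CPM per site, the median of the 52 genes was 11.5 and 8.97 in Cr B x Cr A and 13.6 and 6.19 in Cr A x Cr B. That of the other genes was 11.1 and 12.7 in Cr B x Cr A and 10.9 and 12.1 in Cr A x Cr B. This median was higher in replicate 1 of both crosses for the 52 genes, and higher in replicate 2 of both for the other genes. Gene by gene, replicate 1 was the higher one in 40 of the 52 in Cr A x Cr B. In Cr B x Cr A it was so in only 21, or 40.4%, near the 41.7% of all genes.

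**Figure D2:**
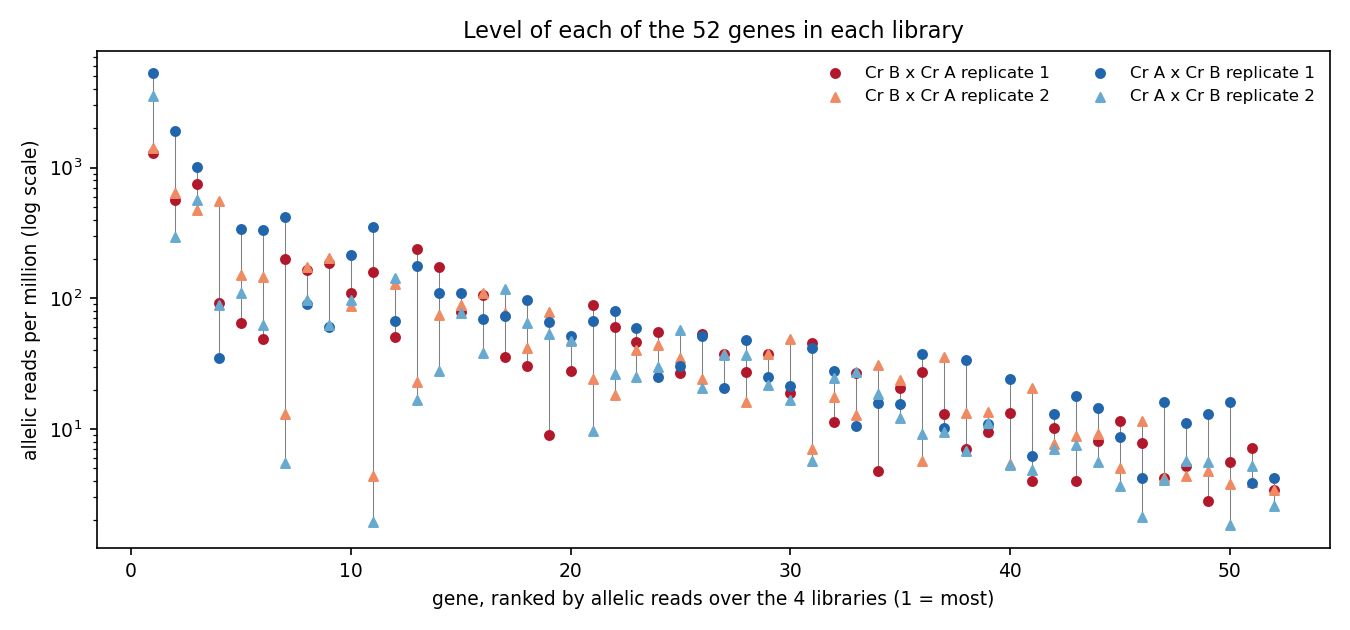
Allelic reads as CPM (log scale) of each of the 52 genes in each of the 4 libraries, with genes ranked by their reads over all libraries. Circles are replicate 1 and triangles replicate 2, reds Cr B x Cr A and blues Cr A x Cr B, and grey lines span the 4 values of a gene. Levels run from 5260 CPM at the top to 1.83 CPM, and genes of ranks 7 and 11 have the widest spread, between replicates.

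Whether these genes were read at different levels in the 2 crosses was tested with edgeR's quasi-likelihood test over 9040 genes, with Benjamini-Hochberg adjustment. No gene passed an adjusted p of 0.05 (0% of genes), the smallest adjusted p was 0.402, and 123 genes (1.36%) had an unadjusted p under 0.05. None of the 52 genes passed, and 4 had an unadjusted p under 0.05, 2 with a ratio of Cr B x Cr A over Cr A x Cr B above 1 and 2 below. DESeq2 called 24 genes, none of them among the 52, and gave 4 of the 52 an unadjusted p under 0.05. With 2 libraries a cross the test had little reach: on simulated data for this comparison it recovered 0% of 2-fold changes and 31.6% of 8-fold changes.

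The 4 genes were the following. The scaffold 8 gene at 10153072 had 1301 and 1421 CPM in Cr B x Cr A, against 5260 and 3548 CPM in Cr A x Cr B. The crosses did not overlap, and its fitted log2 ratio was -1.71 (SE 0.41, unadjusted p = 0.00656, adjusted p = 1.00 in edgeR). The gene on scaffold 4 at 8690786 (to 8692300, plus strand) had 30.5 and 41.8 CPM in Cr B x Cr A, against 97.5 and 64.4 CPM in Cr A x Cr B, a log2 ratio of -1.19 (SE 0.47, unadjusted p = 0.0476 in edgeR). The crosses did not overlap in this gene either. On scaffold 7 the gene at 10275039 (to 10276585, minus strand) had 186 and 202 CPM in Cr B x Cr A, against 59.7 and 62.3 CPM in Cr A x Cr B. Its log2 ratio was 1.66 (SE 0.38, unadjusted p = 0.00518 in edgeR), and the replicates of each cross lay close together. The scaffold 2 gene at 725704 had 92.7 and 554 CPM in Cr B x Cr A, against 35.0 and 88.2 CPM in Cr A x Cr B, with a log2 ratio of 2.33 (SE 0.89, unadjusted p = 0.0411 in edgeR). Its 2 crosses did not overlap, but its lower Cr B x Cr A library and its higher Cr A x Cr B library differed by little. Without replicate 2 of Cr B x Cr A its log2 ratio was 0.69 (unadjusted p = 0.342 in edgeR).

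Over the 52 genes the fitted log2 ratio ran from -1.71 to 2.33, with a median of -0.20, against 0.04 over all genes tested, and 22 genes were above 0 and 30 below. The sign of that median turned on 1 library: without replicate 1 of Cr A x Cr B it was 0.65. Taken within replicate number, the median was -0.42 in replicate 1 and 0.43 in replicate 2. A fitted ratio of 2-fold or more in either direction was found in 14 genes, 5 upward and 9 downward in Cr B x Cr A, or 26.9% of the 52, against 10.8% of all genes tested. The median SE was 0.72 in the 52 genes and 0.63 in all genes tested. The CPM values of the crosses did not overlap in 10 genes that were higher in Cr B x Cr A (13.3% of all genes with enough reads were so) and in 6 genes that were lower (11.6% of all genes).

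Of the genes with 50 or more reads in every library, the largest ratios above 0 after those of 725704 and 10275039 were in 3 genes. The gene on scaffold 6 at 6342509 (to 6347969, plus strand) had 13.0 and 35.3 CPM in Cr B x Cr A, against 10.2 and 9.53 CPM in Cr A x Cr B. The scaffold 7 gene at 11048097 had 105 and 110 CPM in Cr B x Cr A, against 69.5 and 38.0 CPM in Cr A x Cr B, and the scaffold 3 gene at 4590598 had 54.8 and 44.2 CPM, against 24.9 and 29.9 CPM. In all 3 genes the crosses did not overlap, with log2 ratios of 1.24 (SE 0.64), 0.98 (SE 0.49) and 0.87 (SE 0.47). Without replicate 2 of Cr B x Cr A the ratio of the gene at 6342509 was 0.48, and without replicate 2 of Cr A x Cr B that of the gene at 11048097 was 0.56. The gene on scaffold 5 at 12503139 (to 12505885, plus strand), among the 10 with most reads, had 165 and 172 CPM in Cr B x Cr A, against 91.0 and 96.8 CPM in Cr A x Cr B, a log2 ratio of 0.84 (SE 0.37). Its replicates lay close together as well. The largest ratios below 0, besides those of the scaffold 8 gene at 10153072 and the scaffold 4 gene at 8690786, were in genes whose crosses overlapped. These were the scaffold 4 gene at 14607987 (65.1 and 151 CPM in Cr B x Cr A, 337 and 111 CPM in Cr A x Cr B) and the scaffold 7 gene at 6917837 (48.4 and 146 CPM, against 335 and 62.1 CPM). The third was the scaffold 7 gene at 5499333, with 7.02 and 13.3 CPM in Cr B x Cr A, against 33.8 and 6.78 CPM in Cr A x Cr B. In each of these 3 genes replicate 1 of Cr A x Cr B was the highest library, and without it the log2 ratio was 0.64 for the gene at 6917837, 0.60 for that at 5499333 and -0.03 for that at 14607987.

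**Figure D3:**
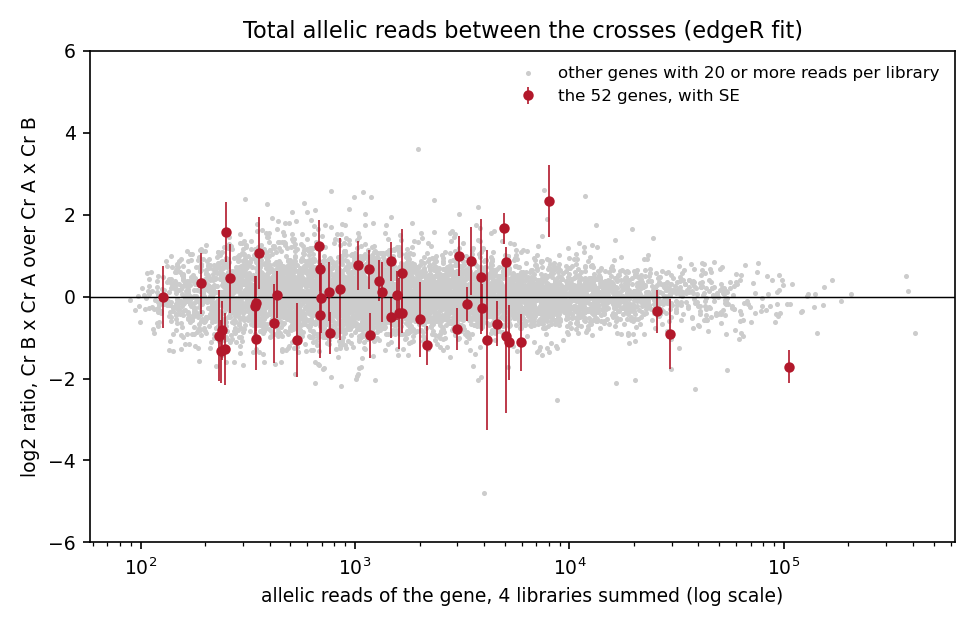
Fitted log2 ratio of total allelic reads, Cr B x Cr A over Cr A x Cr B, against allelic reads summed over the 4 libraries (log scale). Red points are the 52 genes with their SE and grey points the other genes with 20 or more reads in each library. The red points spread from -1.71, at the right, to 2.33, on both sides of 0.

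The replicates differed more than the crosses did for several of the 52 genes. The log2 ratio of CPM in replicate 1 over replicate 2 had a median of -0.06 in Cr B x Cr A and 0.86 in Cr A x Cr B, against -0.19 and -0.10 over the 6990 genes. Replicate 1 was the higher one in 40 of the 52 genes for Cr A x Cr B, against 44.3% of all genes, and in 21 of the 52 for Cr B x Cr A, against 41.7% of all genes. It was the higher one in both crosses in 18 of the 52 (26.4% of all genes) and the lower one in both in 9 of the 52 (40.4% of all genes). Across genes the ratios in the 2 crosses had a Pearson correlation of 0.69 over the 52 and 0.51 over all 6990, a description across genes that share libraries. Replicate 1 was at least 4-fold higher than replicate 2 in both crosses in 5 of the 52 genes, against 1.2% of all genes, and at least 4-fold lower in none of them, against 0.186% of all genes. The labels do not say what replicates with the same number share. Whether the dissection, the seeds or the library differed between the replicates was not tested.

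These 5 genes were named after their values were seen. The gene on scaffold 4 at 1174551 (to 1176347, plus strand) had 160 CPM in replicate 1 and 4.33 in replicate 2 of Cr B x Cr A, and 349 and 1.92 CPM in Cr A x Cr B. The gene on scaffold 4 at 1187993 (to 1188838, minus strand) had 198 and 13.1 CPM in Cr B x Cr A, and 416 and 5.50 CPM in Cr A x Cr B. Replicate 1 was thus 36.9-fold and 182-fold higher for the first gene, and 15.1-fold and 75.6-fold higher for the second. On scaffold 6 the gene at 12711573 (to 12713787, plus strand) had 238 and 22.9 CPM in Cr B x Cr A, and 176 and 16.7 CPM in Cr A x Cr B. The genes on scaffold 3 at 5063219 and on scaffold 7 at 7733047 had ratios of 6.51 and 4.80 in Cr B x Cr A, and 7.37 and 4.15 in Cr A x Cr B. In all 5 genes the maternal share stayed at 99.4% or more in every library, in the high replicate as in the low one. Their difference between the crosses was smaller than that between the replicates.

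**Figure D4:**
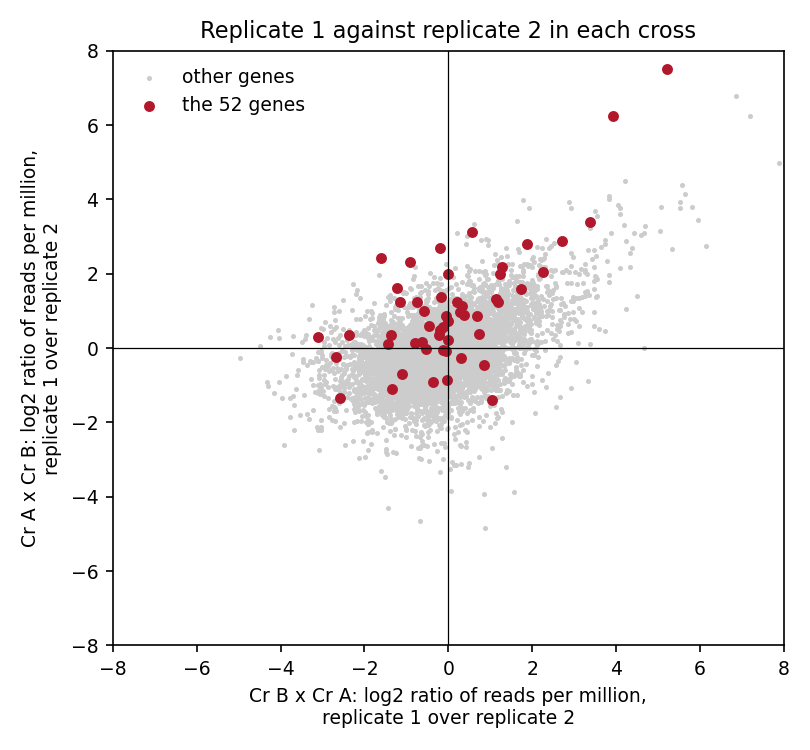
Log2 ratio of CPM in replicate 1 over replicate 2, Cr B x Cr A on the horizontal axis and Cr A x Cr B on the vertical axis. Red points are the 52 genes and grey points the other genes, of which 2 lie beyond the axes. Most red points lie above the horizontal line, and the genes at 1174551 and 1187993 of scaffold 4 are at the upper right.

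The 52 genes were found on 8 scaffolds. Scaffolds 4 and 7 held 10 each, scaffold 6 held 9, scaffold 8 held 8, scaffolds 2 and 5 held 5 each and scaffold 3 held 4. Scaffold 1 held 1 of its 1105 genes with enough reads (0.0905%), the gene at 13225742, while scaffold 4 held 10 of 793 (1.26%) and scaffold 8 held 8 of 693 (1.15%). No 2 of the 52 genes were next to each other with no other listed gene between them.

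Genes beside them were not maternal as a rule. The 102 nearest genes with enough reads, on either side, lay a median of 5983 bp away and had a median maternal share, averaged over libraries, of 69.4%, against 68.8% for the other genes. At 85% or more in all 4 libraries were 2 of the 102 (1.96%, exact 95% interval 0.238 to 6.90%), against 145 of 6938 other genes (2.09%). Leaving out a library also changed the set of genes, to 74 without replicate 1 of Cr B x Cr A and 61 without replicate 2. Neighbours of the 74 at that level in the libraries kept were 6 of 146 (4.11%, against 2.57% of other genes). Those of the 61 were 4 of 120 (3.33%, against 2.24%). The 2 among the 102 were both on scaffold 4, at 1229530 and 10631316, with lowest shares of 91.9% and 96.3%. The former lay 40692 bp from the gene at 1187993, and the latter 15029 bp from that at 10614323.

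Within 20000 bp of each other lay 2 pairs of the 52 genes, and they were described after their values were seen. On scaffold 2 the genes at 725704 and 732301 (to 733757, minus strand) were 5138 bp apart, with 1 gene between them that had 3 reads in all. The gene at 732301 had 80 and 846 reads in Cr B x Cr A and 498 and 582 in Cr A x Cr B, 2 of them paternal. Replicate 1 of Cr B x Cr A was its lowest library. The genes flanking the pair were mixed: that at 723403 was 77.7% and 75.1% maternal in Cr B x Cr A and 63.5% and 56.7% in Cr A x Cr B. On scaffold 4 the genes at 1174551 and 1187993, those with the largest ratios between replicates, were 11645 bp apart with 4 genes between them. Of these 4, the gene at 1180130 was 95.01% and 95.2% maternal in Cr B x Cr A and 99.3% and 98.4% in Cr A x Cr B, and the gene at 1178732 was 94.1% and 83.8%, against 91.5% and 87.0%. The gene at 1181295 was 74.0% and 100% maternal in Cr B x Cr A and 57.4% and 67.7% in Cr A x Cr B. That at 1177105, with only 58 reads in all, was 20.0% and 21.4% maternal in Cr B x Cr A. In Cr A x Cr B its maternal share was 83.3% and 59.3%. Between replicates 1 and 2, the gene at 1180130 had 1362 and 2183 reads in Cr B x Cr A and 7490 and 5536 in Cr A x Cr B. The gene at 1178732 had 1089 and 376 reads in Cr B x Cr A and 620 and 525 in Cr A x Cr B, a log2 ratio of CPM of 1.83 and 0.77. Replicate 1 was thus the higher one in both crosses for the gene at 1178732, by less than for the pair. The gene at 1188978, beside the second of the pair, had 29 and 13 reads in Cr B x Cr A and 33 and 2 in Cr A x Cr B, none paternal, so replicate 1 was higher in both crosses there too. Other genes of the stretch went the other way. Replicate 1 was lower in both crosses for those at 1177105 (log2 ratio of CPM -1.17 and -0.63) and 1170908 (-1.10 and -1.30). It was higher in 1 cross only for those at 1180130 (-0.38 and 0.97), 1181295 (-1.13 and 0.56) and 1166712 (0.49 and -0.36).

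**Figure D5:**
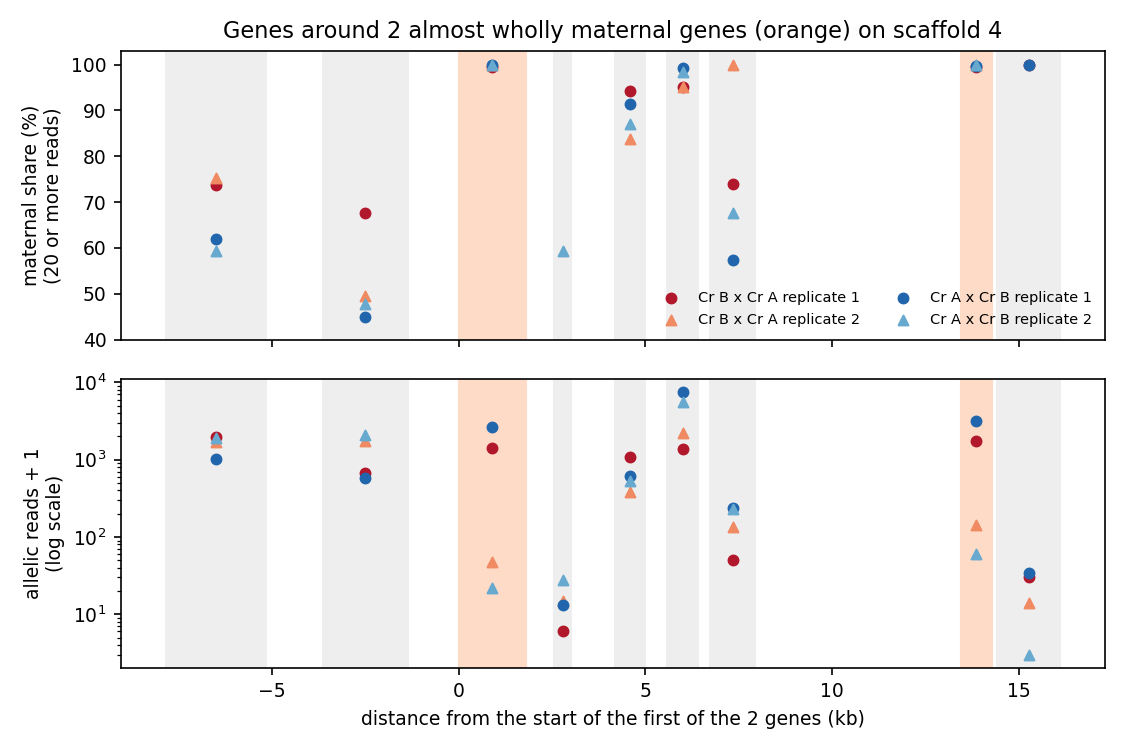
Maternal share (%, upper panel, where a gene had 20 or more reads) and allelic reads plus 1 (lower panel, log scale) of genes around the pair on scaffold 4, by distance from the start of the first gene in kb. Orange bands are the 2 genes of the pair and grey bands the other listed genes, reds are Cr B x Cr A, blues Cr A x Cr B, circles replicate 1 and triangles replicate 2. In the orange bands circles lie far above triangles in reads, with all shares at 99.4% or more, while shares in the grey bands range more widely.

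Polymorphic sites outside any listed gene, which did not enter the choice, were rare near these genes. Within 1000 bp there were 7 such sites with 20 or more reads in each library, beside 5 of the 52 genes. Their pooled reads were 86.9% maternal (3952 of 4548). By library this was 81.0% and 78.5% in Cr B x Cr A, and 91.7% and 90.2% in Cr A x Cr B. Of the 7, 1 was at 0.99 or more and 4 at 0.85 or more in every library, against 1.88% and 7.25% of 1435 such sites elsewhere. The fully maternal one lay 278 bp downstream of the scaffold 7 gene at 6434918, with 66 and 94 reads in Cr B x Cr A and 71 and 67 in Cr A x Cr B. The site 51 bp downstream of the scaffold 7 gene at 14163666 had no paternal read in 3 libraries and 8 paternal reads beside 67 maternal ones in replicate 2 of Cr B x Cr A. With 445 and 1022 reads in Cr A x Cr B, the most of the 7 sites, it weighed most on the pooled share of that cross. The 2 sites upstream of the scaffold 8 gene at 864257 were between 89.6% and 100% maternal. The 2 sites beside the scaffold 7 gene at 6917837 lay nearer to another gene than to it, and were between 51.1% and 89.2% maternal. The site 662 bp downstream of the scaffold 8 gene at 9792661 was 86.7% and 81.1% maternal in Cr B x Cr A, and 64.6% and 53.8% in Cr A x Cr B.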

How the data were processed

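RNA from the endosperm of 2 reciprocal crosses was sequenced in 4 libraries, 2 of each cross. Trimmomatic, TopHat and Bowtie 1.0 are listed in the submitters' processing notes, without saying what each did. The build and the method of calling alleles are not given in the sources used here. The authors deposited, per the file headers, maternal and paternal read counts at each polymorphic site of both crosses, with gene and exon intervals, in 1 table per replicate. These tables name the crosses by a suffix only, and each was tied to the labelled libraries by its counts: the deposited counts per base, of a unit that no header names and that were treated as other, held exactly the maternal and the paternal count in 2 of their base columns at 99.993% of sites or more in the library's own pairing. The 12 other pairings matched at 5.24% of sites or fewer, and at 0.104% or fewer of sites with 20 reads or more. No column of values per sample was left out (0 unused). Leaf DNA of the 2 accessions was not analysed here.

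Maternal and paternal counts were summed over the sites of each gene with Python 3.11.15 and pandas 2.3.3, and exact (Clopper-Pearson) 95% intervals came from SciPy 1.17.1. For a count of 0 the limit is 3 reads of the total. Totals of both alleles were compared between crosses with edgeR 4.0.16 in R 4.3.3 (quasi-likelihood test, TMM scaling, edgeR's default filter on low counts, Benjamini-Hochberg adjustment, threshold 0.05), with DESeq2 1.42.0 as an alternative. On simulated counts for 8753 genes the test recovered 0% of 2-fold and 31.6% of 8-fold changes.

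The 52 genes, the lists and the tests were chosen with earlier results of these data known. Genes named were, by rule, the 10 with most reads, the 5 with most covered sites, the 5 with the largest ratio between crosses in each direction among those with 50 or more reads in each library, and the 3 with the lowest maternal share in any library; 20 genes met it. The rule also covered genes past the test's threshold and adjacent genes of the set, of which there were 0. Marker lists for seed coat, endosperm, embryo, leaf and known imprinted genes gave no result, since no interval could be matched to a name. Alternatives tried were other minimum reads and shares, exonic or deepest sites only, other scalings and filters, a replicate block, other distances, and leaving out each library.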

Additional observations from a re-analysis of the deposited data

How the results depend on the processing

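The number of almost wholly maternal genes was 29 with a minimum of 100 reads and 20 with no paternal read allowed, both below the 52 reported and both subsets of them by construction. It was 76 with a minimum of 10 reads, 40 with 50, 72 at a share of 0.98, 36 at the stricter share tried and 46, of which 41 shared, with the deepest site of each gene only. Without 1 library it lay between 59 and 74 and kept all 52. A rule made looser, by fewer reads, a lower share or a library left out, keeps all 52 by construction. The pooled paternal share was between 0.188% and 0.238% without 1 library.

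For total reads between the crosses, the genes called out of all tested were 24 with DESeq2 (8 upward and 16 downward), 5 without a filter on low counts (3 higher, 2 lower) and 5 with the replicate block (2 higher, 3 lower), against 0 in the test reported; the cause was not tested. None of the 52 genes was called under any alternative run. With the replicate block 8 of the 52 had an unadjusted p under 0.05 in edgeR. Same-numbered libraries deviated together (Pearson 0.58 across 9040 genes, with 2 pairs), but the labels do not tie the numbers to anything shared, so the replicate block is given only here; under it the median log2 ratio was -0.12. Leaving out 1 library, that median lay between -0.49 and 0.65. For the 20 named genes, 14 of 200 log2 ratios under 10 alternatives changed sign, none called before or after, and the lowest adjusted p (edgeR or DESeq2) was 0.242.

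The nearest neighbours at 85% maternal or more were 0 of 46 within 5 kb. At a share of 0.99 they were 0 by construction, since such genes are members. Without 1 library, and so beside a larger set of genes, their share lay between 1.49% and 4.11%. Pooled flanking sites lay between 84.1% and 89.3% maternal without 1 library, and were 88.9% maternal up to 500 bp and 82.9% up to 2 kb. Depth limits the paternal share that can be bounded in the 23 genes with fewer than 100 reads in a library, and 2 libraries per cross limit the test of levels.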

Other observations

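The deepest of the 10 genes just under the bound was on scaffold 6 at 6198054 (to 6200889, plus strand), with 7 sites and 47194 allelic reads. It was 99.6% and 99.7% maternal in Cr B x Cr A, and 98.7% and 98.8% maternal in Cr A x Cr B. Its paternal reads numbered 71 and 36 in Cr B x Cr A, against 109 and 89 in Cr A x Cr B, and the shares of the crosses did not overlap. The gene on scaffold 2 at 7956761 (to 7959553, minus strand) had 17 of its 20 paternal reads in replicate 1 of Cr B x Cr A, where it was 98.8% maternal, and was 99.6% to 100% maternal in the other libraries. Both were chosen after their values were seen, and no difference was tested.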
